A study of Saccharomyces cerevisiae with 6 samples.

Results

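The arginine genes described here are ARG8, CPA1, ARG3, ARG1 and ARG4, which serve arginine synthesis, and CAR1 and CAR2, which serve its breakdown. They were taken by symbol, and 7 of 7 had a probe set of their own among the 5449 genes of Saccharomyces cerevisiae with a probe set on the array. They were picked with earlier results of the same arrays in view, so their values are given as a description and no p value is attached to them. Transcript levels came from 6 Affymetrix Yeast Genome 2.0 arrays, 2 for each of 3 strains. The wild type was BY4741, a haploid laboratory strain of mating type a that carries loss of HIS3, LEU2, MET17 and URA3 function. The eos1 deletion and the izh2 deletion are BY4741 derivatives that share those markers and lack EOS1, for an endoplasmic reticulum membrane protein linked to N-glycosylation, or IZH2, for a membrane protein linked to zinc metabolism. All cultures were untreated and grew at 30 degrees Celsius in YPD, a rich medium, until harvest in log phase. The labels describe 2 independent experiments and number the arrays of each strain 1 and 2, without saying whether a number marks a shared day or preparation, or whether a deletion strain is 1 clone.

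Yeast makes arginine from glutamate by way of ornithine. ARG8 encodes acetylornithine aminotransferase, a mitochondrial step of ornithine synthesis, and CPA1 the small subunit of the arginine-specific carbamoyl phosphate synthetase. ARG3, the ornithine carbamoyltransferase, joins the products of both branches to citrulline, which ARG1, argininosuccinate synthetase, and ARG4, argininosuccinate lyase, turn into arginine. Arginase, encoded by CAR1, splits arginine into ornithine and urea, and ornithine aminotransferase, encoded by CAR2, passes the ornithine on towards proline and glutamate. Synthesis genes are known to be repressed by arginine through the ArgR-Mcm1 complex and to be activated by Gcn4 on amino acid shortage, while CAR1 and CAR2 are induced by arginine.

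The labels and the arrays were compared first. EOS1 had signals of 0.421 and 2.70 on the eos1 deletion arrays against 694 and 692 in the wild type, and IZH2 had 3.46 and 1.12 on the izh2 deletion arrays against 3543 and 2390. Of the markers of mating type, the alpha-factor genes MFALPHA1 and MFALPHA2 stayed between 0.908 and 34.4 on all arrays. The alpha-cell genes STE3 and SAG1 were higher on both eos1 deletion arrays than on the other 4: STE3, too dim to be tested, had 144 and 121 against 38.3 to 77.1, and SAG1 had 450 and 386 against 204 to 268. SAG1 passed against the izh2 deletion (limma adjusted p = 0.0245, and 0.128 after median centring) and not against the wild type (adjusted p = 0.0989). All 7 a-cell genes were bright enough to be tested. All 7 fell in the eos1 deletion against the wild type (limma, adjusted p from 0.0035 to 0.0393), where 0.712% of all tested genes fell. In the eos1 deletion against the izh2 deletion 6 of 7 were lower, against 0.712% of all genes. The part of these markers in the results was not tested. MFA1, which encodes a-factor, had signals of 4318 and 2748 on the wild-type arrays and 671 and 273 after loss of EOS1. The median signal of the 4915 genes tested ran from 553 to 789 over the arrays and was highest on the first eos1 deletion array. Chromosome II genes, 353 of those tested, had a median log2 fold change of 1.03 in the eos1 deletion against 0.19 for the other genes. None of the 7 arginine genes lies on chromosome II in the gene table of assembly R64. The ribosomal RNA controls separated the arrays by number. The median signal of 8 probe sets for 18S rRNA was 4037, 1651 and 1375 on the first arrays of the wild type, the eos1 deletion and the izh2 deletion, and 86.3, 57.7 and 95.8 on the second, and each of the 8 was brighter on the first array of every strain.

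The synthesis genes differed more between the arrays of a deletion strain than between that strain's mean and the wild type. ARG1 had signals of 2709 and 3684 on the wild-type arrays, 4447 and 1722 after loss of EOS1, and 2919 and 561 after loss of IZH2. The second array of each deletion strain was low, that of izh2 most of all, and the first was within or above the wild-type range, so that the eos1 deletion arrays lay on both sides of the wild type. ARG3 had signals of 190 and 230 on the wild-type arrays, 465 and 214 after loss of EOS1, and 212 and 76.6 after loss of IZH2. Here the first eos1 deletion array was high and the second izh2 deletion array low, while the remaining 4 arrays lay within 190 to 230. ARG4 had signals of 4535 and 3854 on the wild-type arrays, 4085 and 1461 after loss of EOS1, and 3736 and 1727 after loss of IZH2. For ARG4 the second arrays of both deletions were low, and the other 4 arrays lay between 3736 and 4535. Since each array holds RNA of a whole culture, a lower level in every cell and fewer cells with the transcript cannot be told apart.

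The genes of the earlier steps varied less. ARG8 had signals of 458 and 574 on the wild-type arrays, 601 and 472 after loss of EOS1, and 553 and 328 after loss of IZH2, and its lowest value was that of the second izh2 deletion array. CPA1 had signals of 2941 and 2923 on the wild-type arrays, 4813 and 2949 after loss of EOS1, and 3131 and 2457 after loss of IZH2. The first eos1 deletion array stood above the rest, which lay between 2457 and 3131. From its lowest to its highest array the signal spanned 7.93-fold for ARG1, 6.07-fold for ARG3, 3.10-fold for ARG4, 1.96-fold for CPA1 and 1.83-fold for ARG8.

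**Figure D1:**
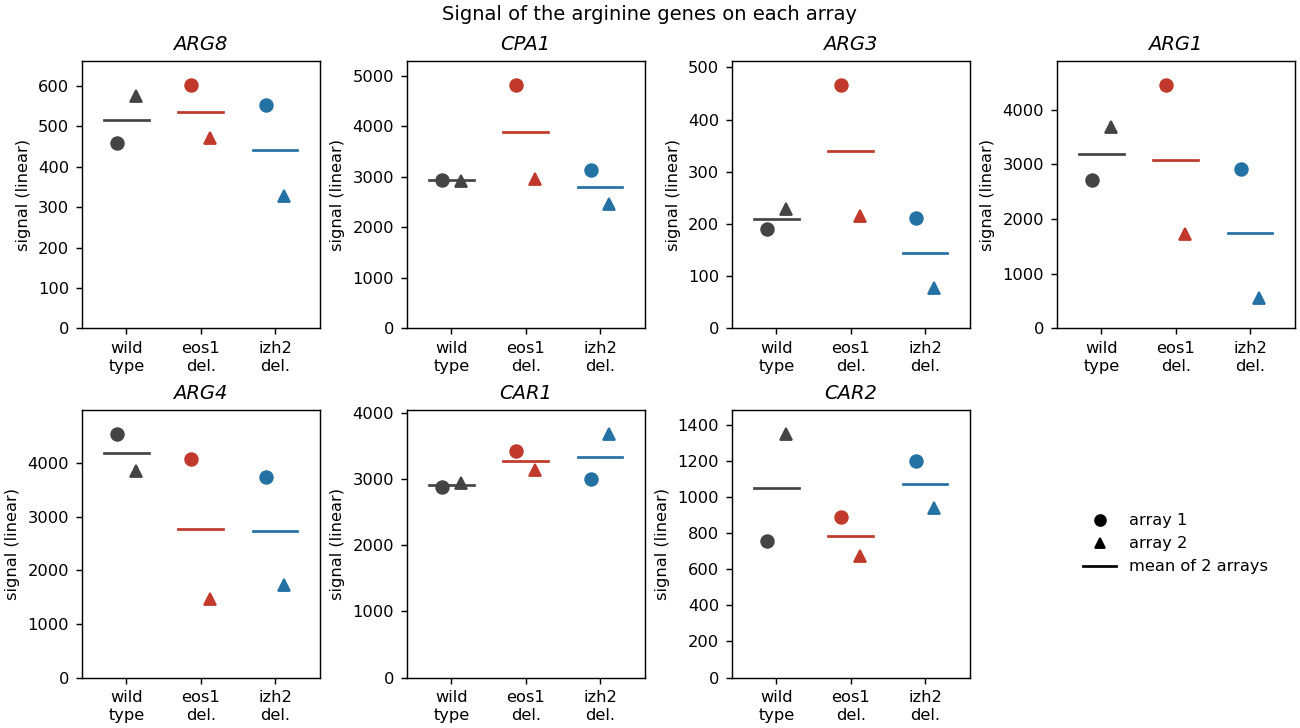
Signal on a linear scale (vertical axes, from 0) of the 7 arginine genes on each array, with circles for array 1, triangles for array 2 and bars for the mean of the 2 arrays of a strain. In both deletions array 2 lies below array 1 for all 5 synthesis genes, as for ARG1 in the izh2 deletion (2919 and 561), while CAR1 stays between 2873 and 3670 on all arrays.

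In the eos1 deletion the first array exceeded the second 2.58-fold for ARG1, 2.17-fold for ARG3, 2.80-fold for ARG4, 1.63-fold for CPA1 and 1.27-fold for ARG8. In the izh2 deletion the ratios were 5.20 for ARG1, 2.76 for ARG3, 2.16 for ARG4, 1.68 for ARG8 and 1.27 for CPA1. In the wild type the second array was the brighter one for ARG1 (1.36-fold), ARG3 (1.21-fold) and ARG8 (1.25-fold), ARG4 was 1.18-fold brighter on the first, and CPA1 differed 1.01-fold. The 5 synthesis genes therefore had the same order of arrays in both deletions and no common order in the wild type.

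Part of such a gap is shared by all genes, whose median lay 0.24 higher on the log2 scale on the first eos1 deletion array than on the second, and 0.09 higher on the first izh2 deletion array. With each array centred on its median over the tested genes, the gap of ARG1 was 1.11 after loss of EOS1 and 2.32 after loss of IZH2, the latter ranking 2 from the top among 4915 genes. That of ARG4 was 1.22 and 1.05, with 0.671% and 0.814% of genes having a gap at least as large in either direction. For ARG3 it was 0.85 and 1.40 (2.48% and 0.305% of genes), for ARG8 0.09 and 0.69, and for CPA1 0.44 and 0.28. ARG1, ARG3 and ARG4 thus lay in the outer few percent of all genes in both deletions, and CPA1 did not in either. Since the genes were picked with results of these arrays in view, such ranks and shares describe them and test nothing. ARG1 and ARG4 were also among the 13 genes, 0.264% of those tested, that were brighter on the first array by over 1 on the log2 scale in both deletions. In the wild type the centred gaps of the 5 synthesis genes ran from -0.57 to 0.11, within the middle 90% of all genes (-0.65 to 0.64).

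**Figure D2:**
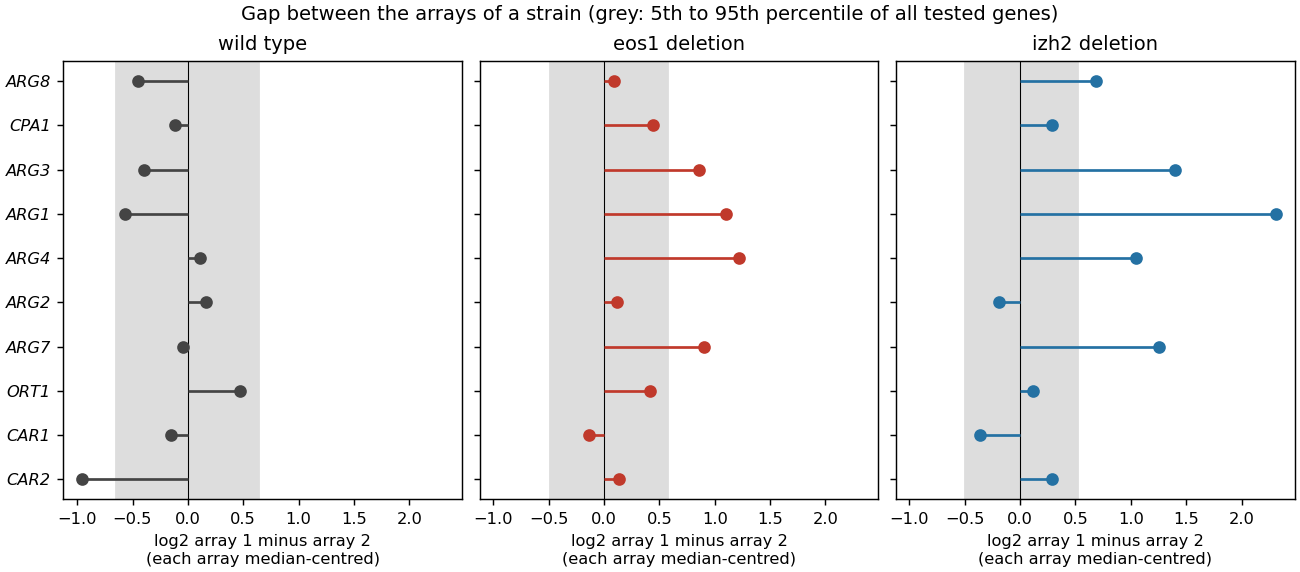
Log2 signal of array 1 minus array 2 within each strain on median-centred arrays (horizontal axis), for the 7 arginine genes and for ARG2, ARG7 and ORT1. The grey band holds the middle 90% of the 4915 tested genes, and ARG1, ARG3, ARG4 and ARG7 lie to its right in both deletions and inside it in the wild type, while ARG8 lies to its right in the izh2 deletion (0.69).

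The 18S rRNA controls moved with the array number in all 3 strains, and the 5 synthesis genes did so in the deletions. The 18S signal of the first array exceeded that of the second 46.8-fold in the wild type, 28.6-fold after loss of EOS1 and 14.4-fold after loss of IZH2. The ratio of 3 prime to 5 prime signal for ACT1, a measure of RNA and labelling quality, came to 1.47 and 1.31 for the wild type, 1.13 and 1.17 after loss of EOS1, and 1.14 and 1.32 after loss of IZH2. The same ratio for SPT15 was lower on the second array of every strain, at 3.72 and 2.47, 3.30 and 2.90, and 2.77 and 2.43 in the same order of strains. The median of 9 hybridisation controls also differed by array number, and was lower on the first array of every strain. It was 821 and 945, 872 and 936, and 767 and 964 in the same order of strains. The part of RNA preparation in the low second arrays was not tested.

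**Figure D3:**
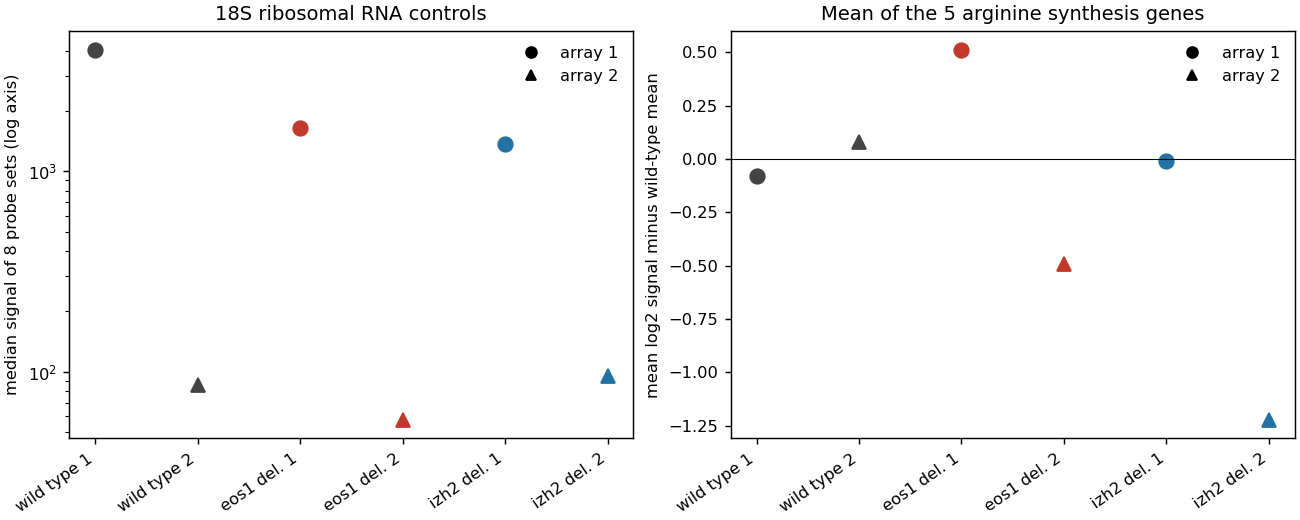
Left, median signal of 8 probe sets for 18S rRNA on each array (log axis), and right, the mean log2 signal of the 5 arginine synthesis genes minus its wild-type mean. The rRNA signal is high on the first array of every strain, while the synthesis genes are low on the second arrays of the eos1 deletion (-0.49) and the izh2 deletion (-1.22) and not on that of the wild type (0.08).

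The comparison of the eos1 deletion with the wild type asked how transcript levels differed between these strains. Loss of EOS1 and the other features of that strain, such as its brighter chromosome II genes and dimmer a-cell genes, cannot be told apart there. Means of the synthesis genes lay on either side of those in BY4741, and the log2 fold changes were 0.05 ± 0.28 for ARG8, 0.36 ± 0.25 for CPA1, 0.60 ± 0.46 for ARG3, -0.19 ± 0.64 for ARG1 and -0.77 ± 0.45 for ARG4 (SE of the limma fit to all arrays, n = 2 each). None of the 7 arginine genes passed an adjusted p under 0.05 in that fit, against 7.14% of all tested genes, 3.11% of those outside chromosome II and 6.49% after median centring, and 21.9% of genes had an unadjusted p under 0.05. The arrays of the strains did not overlap for CPA1 and CAR1, both higher, against 41.9% of all genes higher, 8.83% lower and 50.7% in either direction. Leaving out the first eos1 deletion array brought ARG1 to -0.88, ARG8 to -0.12, ARG3 to 0.04, CPA1 to 0.01 and ARG4 to -1.52. Leaving out the second gave 0.49 for ARG1, 1.16 for ARG3 and -0.03 for ARG4. The median log2 fold change of the 5 synthesis genes was 0.05, against 0.21 for all genes, and it was -0.18 after median centring.

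The comparison of the izh2 deletion with the wild type asked the same of the izh2 deletion strain. All 5 synthesis genes had lower means, though CPA1 turned to 0.04 after median centring, with log2 fold changes of -0.27 ± 0.28 for ARG8, -0.08 ± 0.25 for CPA1, -0.71 ± 0.46 for ARG3, -1.30 ± 0.64 for ARG1 and -0.72 ± 0.45 for ARG4 (SE, n = 2 each). None of the 7 passed, against 0.0203% of all genes, which is IZH2 alone (limma; 0.0219% outside chromosome II), and 2.12% of genes had an unadjusted p under 0.05. Only ARG4, lower, and CAR1, higher, had arrays that did not overlap with the wild type, against 22.9% of all genes lower, 5.19% higher and 28.1% in either direction. These means rested on the second array. Without it the values were 0.11, 0.09, 0.02, -0.11 and -0.16 in the same order, and without the first they were -0.64, -0.26, -1.45, -2.49 and -1.28.

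Between the deletions, ARG3 and ARG1 had the widest differences before median centring, and both were higher in the eos1 deletion. The log2 fold change of the eos1 over the izh2 deletion was 1.31 ± 0.46 for ARG3 and 1.11 ± 0.64 for ARG1, while it was -0.06 ± 0.45 for ARG4 (SE, n = 2 each). Again none of the 7 passed, against 12.7% of all genes (12.0% higher), 7.69% of those outside chromosome II and 10.6% after median centring, and 29.4% had an unadjusted p under 0.05. ARG3, higher, and CAR2, lower, had arrays that did not overlap, against 54.7% of all genes higher, 6.45% lower and 61.1% in either direction. On leaving out 1 array, ARG3 ran from 0.58 without the second izh2 deletion array to 2.04 without the first, and ARG1 from -0.08 to 2.30 without the same arrays. The median of all genes was itself 0.31 in this comparison, and after median centring the values were 0.96 for ARG3 and 0.76 for ARG1. ARG8 and CPA1 had 0.32 and 0.44, or -0.03 and 0.09 after centring. CAR2 had -0.46 ± 0.31, and its -0.81 after centring was wider than the value of ARG1. CAR1 had -0.02, or -0.37 after centring.

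Since the rRNA controls grouped the arrays by number, differences from the wild type were also taken between same-numbered arrays, which leaves 1 array on each side and no error. On the first arrays the eos1 deletion lay above the wild type for 4 of 5 synthesis genes, by 0.39 for ARG8, 0.71 for CPA1, 1.29 for ARG3 and 0.72 for ARG1 on the log2 scale, with ARG4 at -0.15. The median of all genes was 0.28 there, and after median centring these values were 0.09, 0.41, 0.99, 0.41 and -0.45. On the second arrays 4 of 5 lay below, with -0.28 for ARG8, -0.10 for ARG3, -1.10 for ARG1 and -1.40 for ARG4, and CPA1 was at 0.01, or -0.15 after median centring, with a median of 0.14 for all genes. In the eos1 deletion ARG8, ARG3 and ARG1 therefore changed direction between the numbers, while ARG4 lay below the wild type on both. CPA1 changed direction only after median centring. In the izh2 deletion the first arrays differed from the wild type by -0.28 (ARG4) to 0.27 (ARG8), and the second by -0.25 for CPA1, -0.81 for ARG8, -1.16 for ARG4, -1.58 for ARG3 and -2.72 for ARG1.

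**Figure D4:**
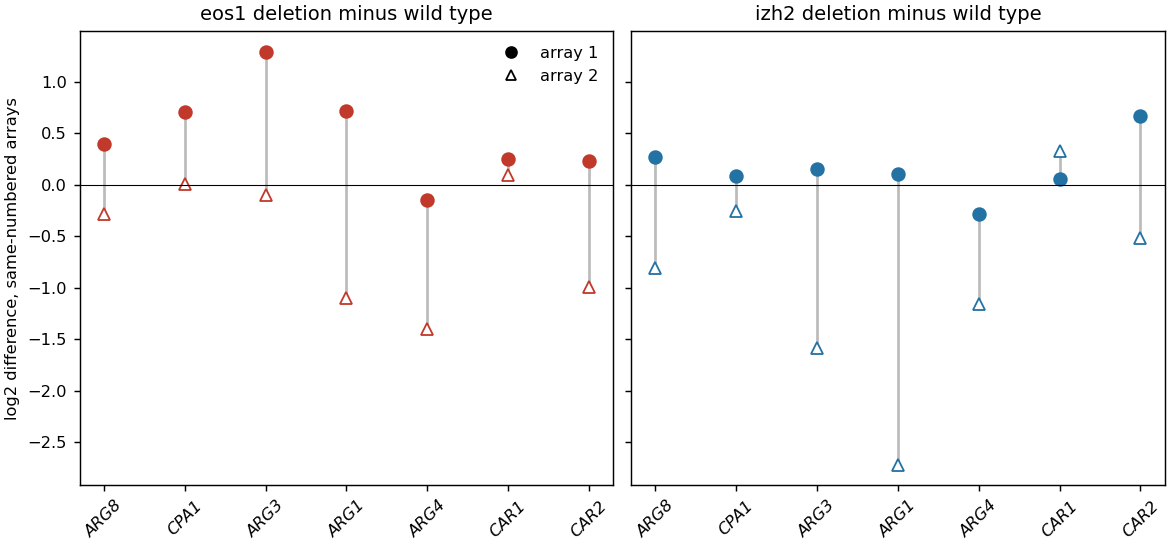
Log2 signal of each deletion minus the wild type between same-numbered arrays (vertical axis), with filled circles for array 1 and open triangles for array 2. For the 5 synthesis genes the array 2 difference is the lower one in both deletions, from -2.72 for ARG1 in the izh2 deletion to 0.01 for CPA1 in the eos1 deletion.

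The breakdown genes did not follow the synthesis genes. CAR1 had signals of 2873 and 2931 on the wild-type arrays, 3415 and 3127 after loss of EOS1, and 2993 and 3670 after loss of IZH2. All 4 deletion arrays lay above both wild-type arrays, but within a span of 1.28-fold over the 6 arrays. Against the wild type it differed by 0.17 ± 0.19 after loss of EOS1 and by 0.19 ± 0.19 after loss of IZH2 (log2, SE, n = 2 each), and the former was -0.06 after median centring. CAR2 had signals of 755 and 1346 on the wild-type arrays, 887 and 675 after loss of EOS1, and 1198 and 941 after loss of IZH2. The gap between the wild-type arrays was the widest of the 3, with 2.95% of all genes having a centred gap at least as large, and it covered all but the second eos1 deletion array. CAR2 differed from the wild type by -0.38 ± 0.31 after loss of EOS1 and 0.07 ± 0.31 after loss of IZH2. The value in the eos1 deletion ran from -0.80 without the first wild-type array to 0.03 without the second.

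Over the 6 arrays, 2 from each of 3 strains, the log2 signals of the synthesis genes varied together, with Pearson coefficients between pairs from 0.48 (ARG4 with CPA1) to 0.96 (ARG1 with ARG8). ARG3 correlated with ARG1 at 0.91 and with CPA1 at 0.90. CAR1 and CAR2 had a coefficient of -0.16 with each other. CAR1 had -0.61 with ARG1, and CAR2 had 0.25. With 6 arrays and 2 low ones these coefficients describe the arrays and were not tested.

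Other genes of arginine synthesis gave a mixed picture. ARG7, the mitochondrial ornithine acetyltransferase, had signals of 1437 and 1358 on the wild-type arrays, 1223 and 546 after loss of EOS1, and 1343 and 539 after loss of IZH2. It repeated the arrays of ARG4, with both second deletion arrays low. ARG2, the acetylglutamate synthase at the start of the pathway, stayed between 247 and 358, and ORT1, which exports ornithine from mitochondria, between 264 and 464. Of these 3, none passed in any comparison (limma). The share of all genes was 7.14% for eos1 and 0.0203% for izh2 against the wild type, and 12.7% between the deletions. ARG7 differed from the wild type by -0.77 ± 0.44 after loss of EOS1 (log2, limma adjusted p = 0.351) and by -0.72 ± 0.44 after loss of IZH2 (adjusted p = 0.998). ARG5,6 was not analysed here.

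Genes that carry the products of arginine breakdown onward included a call. PUT1, the proline oxidase, had signals of 130 and 112 on the wild-type arrays, 264 and 225 after loss of EOS1, and 85.3 and 84.4 after loss of IZH2. The groups did not overlap, and the izh2 deletion arrays lay below 90.5, the signal that the mean of a gene had to exceed to be tested. PUT1 rose 2.02-fold in the eos1 deletion over the wild type (log2 fold change 1.02 ± 0.26, limma adjusted p = 0.0409). On uncentred signals it was at least 2.69-fold higher than in the izh2 deletion, taking 90.5 as the level there (limma adjusted p = 0.00452 on the measured signals). The measured log2 fold change over the izh2 deletion was 1.52, but 1.17 after median centring and 0.97 after quantile normalization. The first of these calls was lost after median centring (adjusted p = 0.0754) and on leaving out any array except the first wild-type one. The second was lost, among arrays left out, without the second izh2 deletion array. PUT2, which completes proline use, had signals of 528 and 640 in the wild type against 946 and 867 in the eos1 deletion, all higher, and its log2 fold change of 0.64 ± 0.23 missed the threshold (adjusted p = 0.136). DUR3, a urea permease, had 0.56 ± 0.25 (adjusted p = 0.225). PRO3, which makes proline, and SPE1, the ornithine decarboxylase of polyamine synthesis, had -0.08 and -0.03. In all, 1 of 5 tested genes of this list rose and 0 fell in the eos1 deletion over the wild type, against 6.43% and 0.712% of all genes. Over the izh2 deletion 1 of 5 was higher and 0 lower, against 12.0% and 0.712%. DUR1,2 was not analysed here.

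Transporters of basic amino acids held 1 more called gene. VBA2, a vacuolar permease, rose 2.45-fold in the eos1 deletion over the wild type (limma adjusted p = 0.0101), from signals of 656 and 541 to 1691 and 1259. Its signals were 564 and 535 in the izh2 deletion, over which the eos1 deletion was 2.66-fold higher (limma adjusted p = 0.00455). Of 5 tested genes of this list 1 rose and 0 fell in both comparisons, against 6.43% and 0.712% of all genes over the wild type. Over the izh2 deletion the shares were 12.0% and 0.712%. VBA2 lies on chromosome II, whose tested genes had a median log2 fold change of 1.03 over the wild type, where VBA2 had 1.29. That call was lost without the first eos1 deletion array, and the call over the izh2 deletion without the second izh2 deletion array. CAN1, the arginine permease of the plasma membrane, had signals of 742 and 1256 on the wild-type arrays, 1410 and 1318 after loss of EOS1, and 1262 and 989 after loss of IZH2. Its eos1 deletion arrays were the highest 2, and its log2 fold change of 0.50 ± 0.29 missed the threshold (adjusted p = 0.351). GAP1, the general amino acid permease, had 0.74 ± 0.25 (adjusted p = 0.111), LYP1 0.10 and VBA1 0.29. ALP1 and VBA3 were too dim to be tested. In the izh2 deletion none of the 21 tested genes of the synthesis, breakdown, transport and regulator lists passed, against 0.0203% of all genes.

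The regulators had no common order of arrays, with the first array higher for 3 of 8 in every strain after median centring. GCN4, the activator of amino acid synthesis genes, had signals of 9043 and 9951 on the wild-type arrays, 9790 and 9188 after loss of EOS1, and 8610 and 8605 after loss of IZH2. These arrays spanned 1.16-fold, at a level above that of 97.5% of tested genes, and GCN4 is known to be controlled mainly at translation, which the arrays do not measure. ARG80 had signals of 80.9 to 155, ARG81, the arginine sensor of the ArgR-Mcm1 complex, 134 to 246, ARG82 147 to 314 and MCM1 516 to 858. For MCM1 and ARG80 the first wild-type array was the lowest. Of 8 tested regulators none passed in any comparison (limma). Of all genes 7.14% passed for eos1 and 0.0203% for izh2 against the wild type, and 12.7% between the deletions. PUT3, the activator of PUT1 and PUT2, came closest in the eos1 deletion, with signals of 418 and 439 against 274 and 259 in the wild type (0.69 ± 0.20, adjusted p = 0.0705). GCN2, the kinase that senses uncharged tRNA, had 0.48 ± 0.22 (adjusted p = 0.238) and UME6, a repressor of CAR1, -0.43 ± 0.25 (adjusted p = 0.365).

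Other amino acid synthesis genes known as Gcn4 targets, 22 genes of histidine, tryptophan, lysine, branched-chain, aromatic and serine synthesis, were set beside the arginine genes. Their centred gap between the arrays of a strain had a median of 0.22 in the eos1 deletion, with the first array higher for 16 of 22, and of 0.52 in the izh2 deletion, with the first higher for 21 of 22. In the wild type the median was -0.23, and the first array was higher for 6. The medians of the 5 arginine synthesis genes were 0.85, 1.05 and -0.40. HIS4, of histidine synthesis, named after its values were seen, had signals of 6757 and 7323 on the wild-type arrays, 6635 and 2635 after loss of EOS1, and 7155 and 4166 after loss of IZH2, and it had the widest gap of the list in the eos1 deletion. Against the wild type the list had median log2 fold changes of -0.16 in both deletions, and of -0.39 for eos1 and -0.05 for izh2 after median centring. None of its genes passed, against 7.14% of all genes for eos1 and 0.0203% for izh2. After median centring 2 of 22 fell in the eos1 deletion, HIS1 and ILV3, against 2.24% of all genes. Among 9 genes of glutamate, glutamine, aspartate and asparagine metabolism the median centred gap was -0.01 after loss of EOS1 and 0.17 after loss of IZH2. None of these passed, against the same 7.14% and 0.0203% of all genes. After median centring 1 of 9, GLT1, glutamate synthase, fell in the eos1 deletion, against the same 2.24%. Of 10 tested genes under nitrogen repression or regulating it, such as those of allantoin use and ammonium uptake and the regulators GLN3 and URE2, none passed either (limma), against the same shares.

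**Figure D5:**
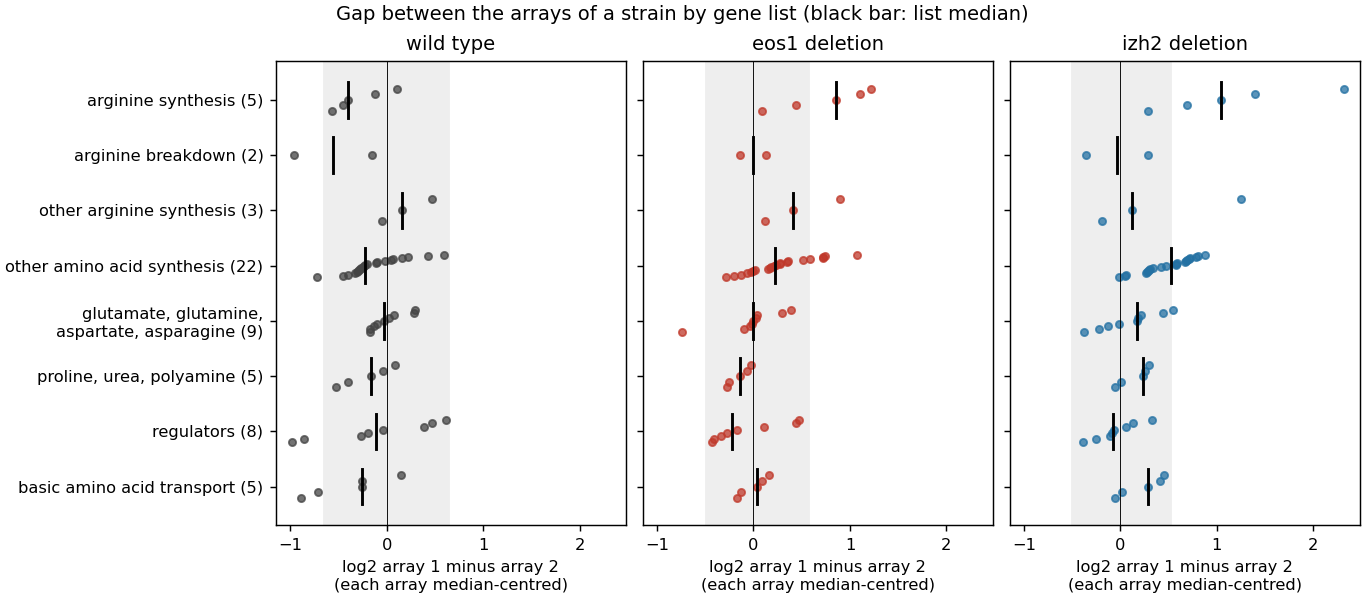
Log2 signal of array 1 minus array 2 within each strain, median-centred, for each gene of 8 lists (points, with the number of genes in brackets) and the list median (black bar), over the middle 90% of all genes (grey). The arginine synthesis genes lie farthest to the right in both deletions, with medians of 0.85 and 1.05, followed in the izh2 deletion by the other amino acid synthesis genes (0.52).

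The genes whose log2 signal over the 6 arrays was most like the mean of the 5 synthesis genes, among 1364 tested genes outside the lists that spanned at least 1 on the log2 scale, were YNL134C (Pearson r = 0.99), PIC2, a mitochondrial carrier (0.97), PCL5, a cyclin of the Pho85 kinase (0.97), MET5, a subunit of sulfite reductase (0.97), and STP4 (0.96). PCL5 had signals of 573 and 682 on the wild-type arrays, 1077 and 466 after loss of EOS1, and 754 and 318 after loss of IZH2, and MET5 had 833 and 769, 1013 and 572, and 719 and 442. Both were low on the second arrays of the deletions. For the mean of CAR1 and CAR2 the closest genes reached only 0.81 (CTF19), 0.78 (HMS2), 0.76 (YHK8), 0.74 (HCM1) and 0.74 (YAR010C, a transposon gene with near-identical copies, whose signal is uncertain for that reason).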

How the data were processed

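The deposited values are signal intensities, linear and never negative, with 10928 probe sets on every array. GCOS is the software that the submitters' processing notes name, and GeneSpring 7.3.1 is named for statistics, per the series' design text. No source used here states a scaling between arrays, and the number of arrays limits the precision. Names came from the platform annotation and the R64 gene table, by which 5498 probe sets name 1 gene, 1 names several, 1746 a gene outside that table and 3683 none. For 47 genes with several probe sets the brightest was used. Signals were floored at 1 and taken to log2 without further normalization. A gene was tested if its mean exceeded the 95th percentile of the probe sets without an S. cerevisiae gene, at a signal of 90.5, and 4915 genes did.

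Limma 3.58.1 in R 4.3.3 was fitted to all 6 arrays (lmFit, contrasts.fit, eBayes with an intensity trend, 3 residual and 7.41 prior degrees of freedom), with two-sided p values adjusted over all tested genes by Benjamini-Hochberg at 0.05. The script was tested on simulated data. Where nothing says that arrays came from separate cultures beyond the 2 experiments, p values measure the spread between these arrays. Alternatives were median centring, quantile normalization, another floor, filter, probe set rule, trend or set of arrays, the array number as a block, and leaving out each array. The members and lists were chosen with earlier results of these data known. Genes outside the members were named if they stood in the close lists, were called, or were among the 5 most alike by Pearson r. The lists for mating type and the deleted genes served as checks of the labels. No sequences were used here.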

Additional observations from a re-analysis of the deposited data

How the results depend on the processing

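Of the log2 fold changes of the 7 arginine genes under all alternatives, 307 moved by less than the spread between arrays and 41 by more. Most alternatives could not move them. Another floor, filter, probe set rule or trend, the block, and removal of chromosome II genes leave these fold changes as they were by construction. So does leaving out arrays of the strain outside a comparison, and the 307 therefore does not measure robustness. None of the 7 was called under median centring, quantile normalization, a floor of 16, no filter, the mean of probe sets, no intensity trend or without chromosome II genes. With the replicate block none was called either, 2, 0 and 2 other pathway genes were (eos1 against wild type, izh2 against wild type, eos1 against izh2), and 428, 1 and 740 of all genes. The gap of array 1 minus array 2 correlated between strains at r = 0.48 (wild type with eos1), -0.34 (wild type with izh2) and 0.09 (eos1 with izh2) over 4915 genes. The labels do not say that a number marks a shared day or preparation, and the main fit did not pair arrays by number.

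Where 1 array of a strain is left out, the lone array is assumed to vary like the other strains, and calls of arginine genes are a description, since the genes were chosen on these arrays. For eos1 against wild type, all genes called numbered 351, but 95 with a stricter filter (1071 genes tested), 226 with only the arrays of the comparison, 59 without chromosome II genes, and 160 to 415 on leaving out 1 array. The stricter filter and the removal of chromosome II each test fewer genes. Median centring changed the split from 316 higher and 35 lower to 209 and 110. Other pathway genes called numbered 2, but 1 after centring, quantile normalization or with the comparison's arrays, 0 with the stricter filter or without chromosome II genes, and 0 to 2 on leaving out 1 array. Arginine genes called numbered 0 to 1 on leaving out 1 array (ARG4 without the first eos1 array).

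For izh2 against wild type, 4 genes were called with the stricter filter, ARG1 among them (1 of the 7), and 1 to 25 on leaving out 1 array, the 25 without the second wild-type array. For eos1 against izh2, 623 genes were called, but 139 with the stricter filter and 251 without chromosome II genes, and 82 to 879 on leaving out 1 array, the lowest without the second izh2 array; centring split them 327 higher and 193 lower against 588 and 35. Of the 7, 1 was called with the stricter filter (ARG1), 1 with only the comparison's arrays (ARG3), and 0 to 2 on leaving out 1 array. Other pathway genes called numbered 0 with the stricter filter, 1 without chromosome II genes and 0 to 2 on leaving out 1 array.

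An alternative chosen after seeing the data, without the second array of each deletion strain, leaves each deletion 1 array that is assumed to vary like the wild type. It called 1 of the 7 in eos1 against wild type (ARG3), 1 other pathway gene there, and 2 genes in izh2 against wild type. Causes of these changes were not tested. Probe sets near background, such as PUT1 in the izh2 deletion, limit what small differences can show.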
